A study of Mus musculus with 6 samples.

Results

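The iron handling genes described here are *Tfrc*, *Steap3*, *Slc11a2*, *Trf*, *Fth1*, *Ftl1*, *Ncoa4*, *Slc40a1*, *Cp* and *Ireb2*, which cover iron uptake, storage, export and the control of these steps. They were taken by gene symbol, and all 10 were found among the 55367 symbols listed for each library. RNA-seq covered kidney tubular epithelial cells collected on Day115 from 3 groups of mice with 2 libraries each. The WT group had received saline, the ADPKD group carried the genotype Pkd1-/- and had received saline, and the ADPKD+MMPP group carried the same genotype and had received MMPP. MMPP is a small melanin-like nanoparticle that carries polyethylene glycol and chelated manganese, and it was injected intravenously over the weeks before collection. The knockout was made in male Pkd1 fl/fl;Cre/Esr1+ mice, in which tamoxifen activates the Cre recombinase. The cells were enriched with DBA, a plant lectin that binds collecting duct epithelium, and the labels do not say whether the libraries of a group came from separate animals. The p-values therefore measure the spread between these libraries, which may be technical.

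Iron enters most cells bound to transferrin, which the transferrin receptor carries into endosomes. A ferrireductase reduces the iron there and the transporter DMT1 moves it to the cytosol, where ferritin, a shell of heavy and light chains, stores the surplus. Ferroportin is the export transporter for iron, and copper oxidases such as ceruloplasmin help to load the exported iron onto transferrin. When iron is scarce, the iron regulatory proteins IRP1 and IRP2 bind a hairpin called the iron-responsive element, which holds back translation of ferritin and ferroportin mRNA and protects the mRNA of the transferrin receptor from decay. An effect on translation is not visible in mRNA levels.

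The hairpins of 4 of the 10 genes are shown, which are those in which the search described here found a match in a UTR. The search took the letters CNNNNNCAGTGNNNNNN, in which the 5 bases before and the 5 bases after the loop CAGTGN had to pair with each other, G with T allowed, on the sense strand of the coding transcripts of GENCODE vM21 (GRCm38). *Fth1* at chr19:9982733-9982759 (plus strand), *Ftl1* at chr7:45459780-45459806 (minus strand) and *Slc40a1* at chr1:45925466-45925492 (minus strand) each held a match in the 5′ UTR. *Tfrc* held 4 matches in the 3′ UTR, all on the plus strand, at chr16:32631220-32631246, chr16:32631599-32631625, chr16:32631664-32631690 and chr16:32631711-32631737, numbered 1 to 4 in this order. The capitals mark the loop of 6 bases.
Fth1: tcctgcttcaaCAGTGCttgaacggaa
Ftl1: tcttgcttcaaCAGTGTttgaacggaa
Slc40a1: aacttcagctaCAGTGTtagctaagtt
Tfrc site 1: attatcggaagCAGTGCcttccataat
Tfrc site 2: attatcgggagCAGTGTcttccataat
Tfrc site 3: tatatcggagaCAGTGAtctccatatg
Tfrc site 4: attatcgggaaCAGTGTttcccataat

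The sites of the ferritin chains were the same at 25 of 27 bases. Of all 21877 coding genes, 31 (0.142%) held a match in a 5′ UTR and 129 (0.59%) held one in a 3′ UTR. No match was found in *Slc11a2*, *Ireb2*, *Trf*, *Cp*, *Ncoa4* or *Steap3*. This says only that these letters with all 5 pairs were not found in their annotated coding transcripts. A hairpin with an unpaired base among the 5 would be missed, so these genes are not shown to lack an iron-responsive element.

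Values are FPKM, the fragments of a gene relative to its length and to the size of the library. In ADPKD+MMPP the values also followed transcript structure, as described below, so levels of different genes in these libraries are not directly comparable. Calls needed a change of 1.5-fold or more, up or down, together with P under 0.05 before adjustment in limma, with log2 fold changes on the log2(FPKM + 1) scale, where a change at low FPKM is understated. All 10 genes reached 1 FPKM in 2 or more libraries and so entered the test. Of the values under 30 reads, 98.2% to 99.0% per library came within 0.05 reads of a whole read number, and the size of a read gave depths of 30.6 to 33.1 M reads in WT and ADPKD and 10.9 to 11.8 M reads in ADPKD+MMPP. *Pkd1*, the targeted gene, was at 17.7 and 17.2 FPKM in WT, 7.64 and 8.91 FPKM in ADPKD, and 4.34 and 3.99 FPKM in ADPKD+MMPP. All 8 markers of principal cells were above 0 in each group. Their summed FPKM was 2075 and 2773 in WT, 935 and 2467 in ADPKD, and 5415 and 5439 in ADPKD+MMPP. Single markers were divided: of the 7 that entered the test, 4 passed as higher and 2 as lower after MMPP relative to ADPKD. With WT as the reference, 2 of the 7 passed as higher and 1 as lower after MMPP, while 0 passed for ADPKD.

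The ADPKD+MMPP libraries also differed from the others in how their values were built. Odd read numbers made up 36.5% to 38.1% of the values under 30 reads of each WT and ADPKD library, but 8.16% and 7.55% of those of the ADPKD+MMPP libraries. Over 12375 protein-coding genes, the log2 fold change of ADPKD+MMPP against ADPKD followed the share of coding bases that lie in exactly 1 annotated transcript, with a Spearman's rho of 0.541 across genes, against 0.0195 for ADPKD against WT. Genes are not independent replicates, so the rho is given as a description. This feature and the treatment occur in the same libraries and cannot be told apart, so the changes of single genes after MMPP are also given below after centring each library on genes of a like transcript structure. The ratios between genes are given uncentred. In bulk samples such as these, fewer cells of a type and less RNA per cell cannot be told apart either.

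In ADPKD against WT, 5 of the 10 genes were called higher and 1 lower, where 26.7% of the 14862 tested genes were called, 14.2% up and 12.5% down. For ADPKD+MMPP against ADPKD, 2 genes passed as higher and 7 as lower, where 70.9% of the tested genes were called, 27.9% higher and 43.0% lower. In ADPKD+MMPP against WT, 2 were called higher and 6 lower, where 73.9% of the tested genes were called, 30.1% up and 43.8% down. The 10 genes had a median log2 fold change of 0.45, -1.14 and -1.17 in these comparisons, beside 0.03, -0.36 and -0.36 over all tested genes. The first and the second comparison share the ADPKD libraries, so their values are not independent of each other.

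**Figure D1:**
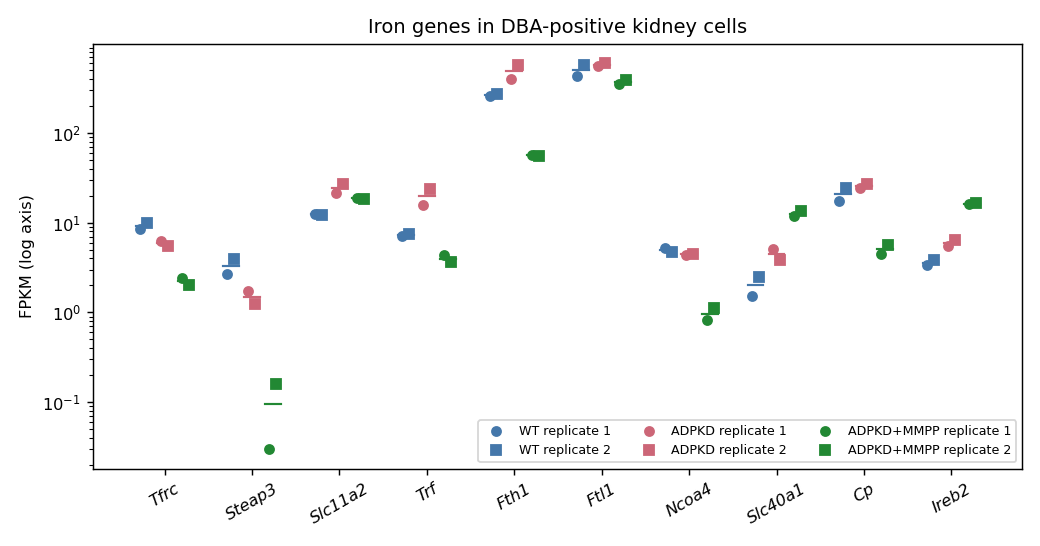
FPKM of the 10 iron genes on a log axis, with 1 point per library (circles for replicate 1, squares for replicate 2) and a line at the mean of each group of 2 libraries. *Ftl1* and *Fth1* are the highest of the 10 in all 6 libraries, and the *Fth1* points of ADPKD+MMPP, at 57.7 and 55.4 FPKM, lie below those of the other groups.

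Among the uptake genes, transferrin mRNA was higher in ADPKD, the transferrin receptor and the endosomal reductase were at lower levels there, and the transporter DMT1 was higher. *Trf*, which encodes transferrin, was at 7.10 and 7.48 FPKM in WT, 15.9 and 23.97 FPKM in ADPKD, and 4.34 and 3.64 FPKM in ADPKD+MMPP. No library of a group reached into the range of another, and ADPKD was the highest group. *Trf* rose 2.73-fold in group means in ADPKD against WT, with a log2 fold change of 1.31 (standard error 0.21, adjusted p = 0.0102, limma with Benjamini-Hochberg adjustment). It was the member with the largest change in that comparison. In ADPKD+MMPP it fell by 2.04 on the log2 scale against ADPKD (standard error 0.21, adjusted p = 0.000336) and by 0.74 against WT (adjusted p = 0.019). The call against WT was lost, at P from 0.0519 to 0.0789, without either WT library or without replicate 2 of ADPKD+MMPP, and with quantile normalization the value was -0.21 and was not called. *Trf* shares 2108 exon bases with *Gm20425*, a gene model on the same strand, so reads there could belong to either.

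*Tfrc*, the transferrin receptor, was at 8.55 and 10.03 FPKM in WT, 6.26 and 5.58 FPKM in ADPKD, and 2.41 and 2.04 FPKM in ADPKD+MMPP. The groups were ordered WT, ADPKD and ADPKD+MMPP with no overlap. The difference of ADPKD from WT was -0.57 on the log2 scale (standard error 0.14, adjusted p = 0.0337), just under the fold change a call needs, and it passed without replicate 1 of WT (-0.67) and without replicate 1 of ADPKD (-0.64). *Tfrc* fell by 1.10 in ADPKD+MMPP against ADPKD (standard error 0.14, adjusted p = 0.000785) and by 1.67 against WT (adjusted p = 0.000139), and both calls were lost after each of the centrings by transcript structure described below.

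*Steap3* encodes the reductase that converts ferric iron in endosomes. It was at 2.71 and 3.92 FPKM in WT, 1.73 and 1.23 FPKM in ADPKD, and 0.0296 and 0.160 FPKM in ADPKD+MMPP. It fell by 0.79 on the log2 scale in ADPKD against WT (standard error 0.19, adjusted p = 0.032) and by 1.17 in ADPKD+MMPP against ADPKD (standard error 0.19, adjusted p = 0.00213). The ADPKD+MMPP values rest on 2 and 10 reads, with 95% Poisson limits of 0.00359 to 0.107 FPKM and 0.0769 to 0.295 FPKM. The limits cover counting error only and take reads as independent. Few read numbers were odd in the ADPKD+MMPP libraries, so independence is not certain and their limits may be too narrow. As computed, they lie below those of the ADPKD libraries, which were 1.55 to 1.93 FPKM and 1.07 to 1.40 FPKM.

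*Slc11a2* encodes DMT1, which moves ferrous iron out of endosomes and across the apical membrane. It was at 12.6 and 12.3 FPKM in WT, 21.5 and 26.9 FPKM in ADPKD, and 18.8 and 18.6 FPKM in ADPKD+MMPP. Every ADPKD library was above every WT library, and *Slc11a2* rose 1.94-fold in group means (log2 fold change 0.90, standard error 0.14, adjusted p = 0.00981). It was the only one of the 10 genes not called in ADPKD+MMPP against ADPKD, where the difference was -0.35 on the log2 scale with a 95% interval from -0.70 to 0.001. It was called at -0.64 when the libraries were scaled to a common FPKM sum, was at -0.14 with the median of ratios, and was at -0.20 without replicate 2 of ADPKD. Against WT the difference was 0.55 (adjusted p = 0.0132), with a 1.498-fold ratio of the means, and it too was under the fold change of a call.

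Among the storage genes, the heavy chain of ferritin was called in all 3 comparisons and the light chain in 1. *Fth1*, the heavy chain with the ferroxidase activity, was at 259.6 and 272 FPKM in WT, 398 and 576 FPKM in ADPKD, and 57.7 and 55.4 FPKM in ADPKD+MMPP. It was highest in ADPKD and lowest in ADPKD+MMPP, without overlap. *Fth1* rose 1.83-fold in group means in ADPKD against WT (log2 fold change 0.85, standard error 0.19, adjusted p = 0.0269), and without replicate 2 of ADPKD the value was 0.58, just under the fold change of a call. In ADPKD+MMPP it fell by 3.06 on the log2 scale against ADPKD (standard error 0.19, adjusted p = 6.6e-05), and by 2.21 against WT (adjusted p = 0.000161). Its change against ADPKD was the largest of the 10 on this scale, while with a pseudocount of 0.1 *Fth1* was at -3.0805 and *Steap3* at -3.0849.

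*Ftl1*, the light chain, was at 438 and 571 FPKM in WT, 558 and 601 FPKM in ADPKD, and 351 and 389 FPKM in ADPKD+MMPP. The WT and ADPKD libraries overlapped, and the difference was 0.21 on the log2 scale (95% interval from -0.20 to 0.62, adjusted p = 0.385). *Ftl1* fell by 0.65 in ADPKD+MMPP against ADPKD (standard error 0.17, adjusted p = 0.0134), and without replicate 1 of ADPKD+MMPP the value was -0.57 and was not called. Against WT the difference was -0.43 (adjusted p = 0.0521) and was not called. The pseudogene *Ftl1-ps1* was at 7.42 to 10.2 FPKM, and how reads shared with it were assigned is not given in the sources used here.

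The ratio of *Fth1* to *Ftl1* inside a library does not depend on the scaling of that library. It was 0.593 and 0.476 in WT, 0.714 and 0.958 in ADPKD, and 0.164 and 0.142 in ADPKD+MMPP, so the groups did not overlap. The ratio of *Tfrc* to *Fth1*, which sets the uptake receptor against the storage protein, was 0.0329 and 0.0369 in WT, 0.0157 and 0.00968 in ADPKD, and 0.0418 and 0.0369 in ADPKD+MMPP. It was lowest in ADPKD, while the WT and ADPKD+MMPP values lay within 0.0329 to 0.0418. Neither ratio is centred by transcript structure, which the ADPKD+MMPP values followed and which differs between genes. In the centred values given below, *Fth1* was called lower in ADPKD+MMPP than in WT and *Tfrc* was not called. The nearness of the *Tfrc* to *Fth1* ratios of WT and ADPKD+MMPP thus holds for uncentred FPKM only.

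**Figure D2:**
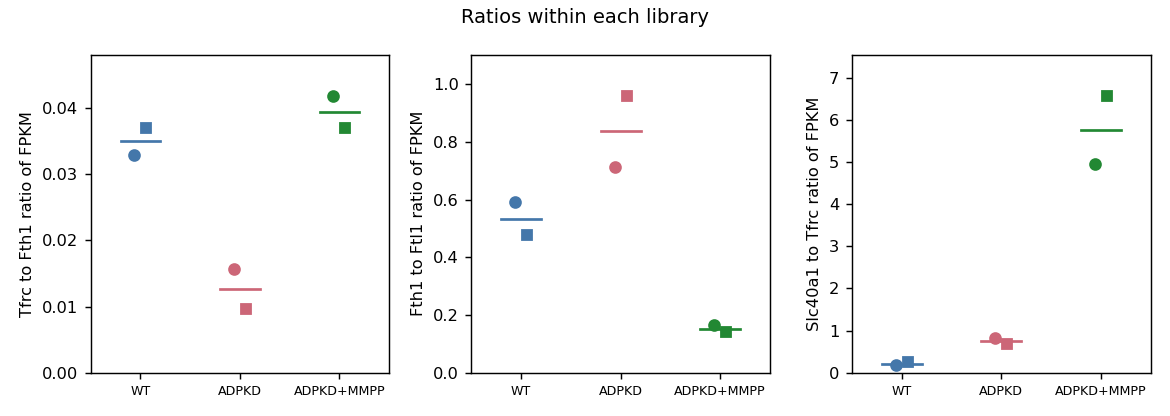
Ratios of FPKM inside each library for *Tfrc* to *Fth1*, *Fth1* to *Ftl1* and *Slc40a1* to *Tfrc*, with 1 point per library and a line at the group mean (n = 2). The *Tfrc* to *Fth1* ratio is lowest in ADPKD, and the *Slc40a1* to *Tfrc* ratio goes from 0.181 and 0.249 in WT to 4.96 and 6.56 in ADPKD+MMPP. The ratios are not centred by transcript structure, which the ADPKD+MMPP values followed.

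*Ncoa4* encodes the cargo receptor that delivers ferritin to lysosomes for iron release. It was at 5.22 and 4.70 FPKM in WT, 4.38 and 4.50 FPKM in ADPKD, and 0.814 and 1.12 FPKM in ADPKD+MMPP. Between ADPKD and WT the difference was -0.13 on the log2 scale (95% interval from -0.46 to 0.20, adjusted p = 0.50). The ADPKD+MMPP libraries were below the other 4, with a fall of 1.47 against ADPKD (standard error 0.13, adjusted p = 0.000208).

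Of the export genes, the transporter was higher in ADPKD and, before centring by transcript structure, higher again in ADPKD+MMPP. The oxidase was lower in ADPKD+MMPP. *Slc40a1*, which encodes ferroportin, was at 1.54 and 2.498 FPKM in WT, 5.16 and 3.85 FPKM in ADPKD, and 11.95 and 13.4 FPKM in ADPKD+MMPP. The groups did not overlap. *Slc40a1* rose 2.23-fold in group means in ADPKD against WT (log2 fold change 0.87, standard error 0.21, adjusted p = 0.0305), 2.82-fold in ADPKD+MMPP against ADPKD (log2 fold change 1.32, adjusted p = 0.00182) and 6.28-fold in ADPKD+MMPP against WT (log2 fold change 2.20, adjusted p = 0.000215). After each of the centrings by transcript structure described below, the call against ADPKD was lost and the call of ADPKD+MMPP against WT was kept. By uncentred FPKM, *Slc40a1* was the lowest of the 10 genes in WT and ranked 5th in ADPKD+MMPP.

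Macrophages, which recycle iron from red cells, also express ferroportin. The summed FPKM of 11 macrophage markers was 88.8 and 86.4 in WT, 533 and 649 in ADPKD, and 1171 and 1223 in ADPKD+MMPP. Of the 9 macrophage markers tested, 8 were called higher and 1 lower in ADPKD against WT, but 4 were called higher and 4 were called lower once MMPP-treated cells were set against ADPKD, with a median log2 fold change of 0.00. *Vsig4* and *Cd5l* were at 0 in both WT libraries, and *Itgam* and *Vsig4* in both ADPKD+MMPP libraries. The summed FPKM of 12 proximal tubule markers was 396 to 729 in WT, 279 to 900 in ADPKD, and 13740 to 14420 in ADPKD+MMPP. The part of these cells in the iron gene values was not tested. The 8 erythroid markers in the files summed to 2.18 to 6.88 FPKM in the 6 libraries.

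*Cp* encodes ceruloplasmin, the copper oxidase that converts exported iron to its ferric form. It was at 17.3 and 24.2 FPKM in WT, 24.5 and 26.8 FPKM in ADPKD, and 4.48 and 5.66 FPKM in ADPKD+MMPP. Between ADPKD and WT the difference was 0.31 on the log2 scale (95% interval from -0.18 to 0.80, adjusted p = 0.286), and it was 0.08 without replicate 1 of WT and 0.54 without replicate 2 of WT, in neither case a call. *Cp* fell by 2.14 in ADPKD+MMPP against ADPKD (standard error 0.20, adjusted p = 0.000228) and by 1.83 against WT (adjusted p = 0.000361), with both ADPKD+MMPP libraries below the other 4. The liver is the main source of ceruloplasmin and transferrin in blood, and the summed FPKM of 6 hepatocyte markers was 4.79 to 5.001 in WT, 7.06 to 8.98 in ADPKD and 56.6 to 65.2 in ADPKD+MMPP. Of the 5 hepatocyte markers tested, 2 were called higher and 1 lower in MMPP-treated cells against ADPKD, and *Ahsg* was at 0 in both ADPKD+MMPP libraries. The part of hepatocyte RNA in these values was not tested.

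*Ireb2*, which encodes IRP2, was at 3.37 and 3.81 FPKM in WT, 5.45 and 6.39 FPKM in ADPKD, and 16.2 and 16.6 FPKM in ADPKD+MMPP. It had the same order of groups as *Slc40a1*. *Ireb2* rose 1.65-fold in group means in ADPKD against WT (log2 fold change 0.59, standard error 0.13, adjusted p = 0.0243), and the call was lost without replicate 1 of WT (0.52) or replicate 2 of ADPKD (0.49). It rose 2.77-fold in ADPKD+MMPP against ADPKD (log2 fold change 1.33, adjusted p = 0.000274), and this call was lost after each of the centrings by transcript structure described below.

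**Figure D3:**
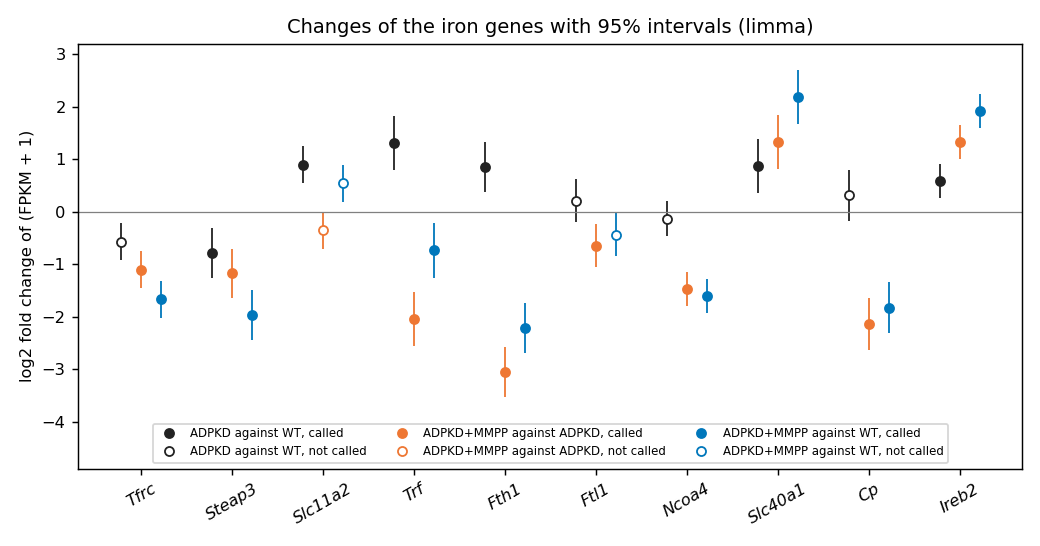
log2 fold changes of the 10 iron genes in limma for the 3 comparisons, with bars for the 95% interval, filled points for called genes and open points for genes not called. *Trf* and *Fth1* lie above 0 in ADPKD against WT and below 0 in ADPKD+MMPP against ADPKD, whereas *Slc40a1* and *Ireb2* lie above 0 in all 3 comparisons. The values are before centring by transcript structure.

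The direction of the changes after MMPP separated along transcript structure. The 7 genes called lower against ADPKD had between 0% and 4.31% of their coding bases in exactly 1 transcript, *Slc11a2* had 10.4%, and the called higher *Slc40a1* and *Ireb2* had 69.9% and 72.6%. Among protein-coding genes with a share of 0%, 61.1% were called lower in the same comparison and 11.3% higher, while with a share above 60% and up to 80%, 70.8% were called higher and 4.5% lower. The former class had a median log2 fold change of -0.99 and the latter 1.02.

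**Figure D4:**
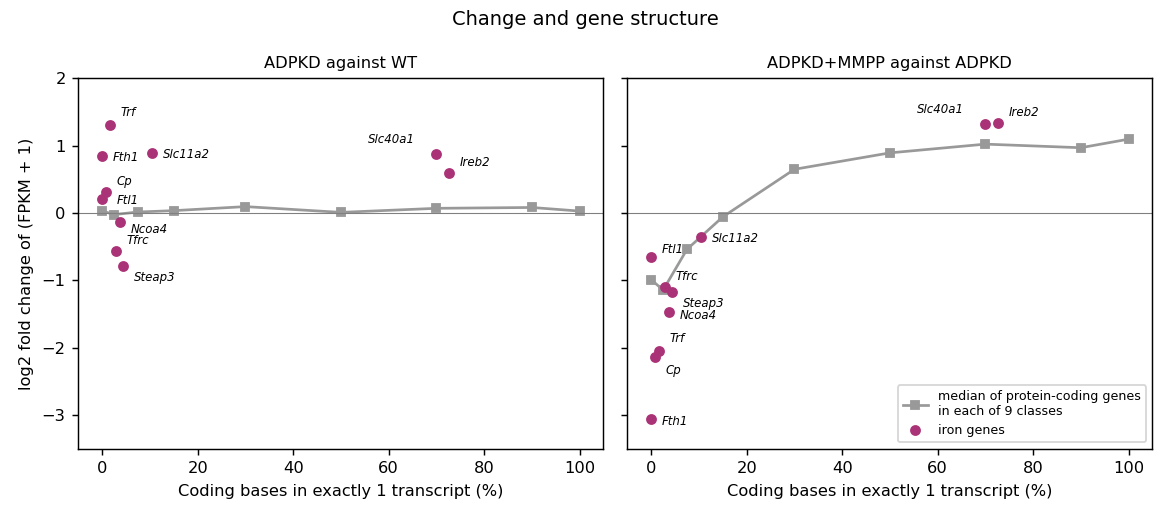
log2 fold change against the percentage of coding bases that lie in exactly 1 annotated transcript, for ADPKD against WT (left) and ADPKD+MMPP against ADPKD (right). Squares are medians of the tested protein-coding genes in 9 classes of that share, and circles are the 10 iron genes. On the left the medians stay between -0.02 and 0.10. On the right they are -0.99 at 0%, lowest at -1.14 in the class above 0% and up to 5%, and 1.10 at 100%. *Fth1*, *Cp*, *Trf*, *Ncoa4* and *Steap3* are among the genes below the line on the right.

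After centring on genes of a like share of coding bases, *Fth1* was lower in ADPKD+MMPP than in ADPKD by a log2 fold change of -2.15, *Cp* by -1.09 and *Trf* by -0.99. These 3 genes were called lower in this comparison also after centring on the share of all exon bases (-3.42, -1.37 and -1.0009) or of the bases of the principal transcript (-2.83, -1.44 and -1.73). The centred values of *Slc40a1* were between -0.06 and 0.00 and those of *Ireb2* between -0.08 and -0.04, and neither was called. *Tfrc* was at 0.33, 0.02 and -0.05 by exon, principal transcript and coding share. *Ftl1* was at 0.66, 0.62 and 0.26, opposite to its uncentred direction, and was called higher under the first and the second centring. *Ncoa4* was at -1.15, -0.10 and -0.42, with a call under the first alone. *Steap3* was at -0.63, -1.60 and -0.12 and *Slc11a2* at -1.11, -0.77 and -0.46, with calls under the first and the second.

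Against WT, the centred values of ADPKD+MMPP were between -2.55 and -1.30 for *Fth1*, between -1.12 and -0.72 for *Cp*, between -2.43 and -0.86 for *Steap3* and between 0.73 and 0.88 for *Slc40a1*, and these genes were called under each of the 3 centrings. *Tfrc* (-0.04, -0.58 and -0.56 by exon, principal transcript and coding share) and *Ireb2* (0.46, 0.45 and 0.54) were called under no centring. *Ncoa4* was at -1.24, -0.12 and -0.50, with a call under the first alone. *Ftl1* was at 0.88, 0.84 and 0.48 and was called higher under the first and the second, and *Slc11a2* was at -0.20, 0.09 and 0.42 and was not called. *Trf* was at 0.32, -0.46 and 0.37, so its direction against WT changed with the centring. In ADPKD against WT, *Ireb2* was at 0.51, 0.53 and 0.58 and lost its call under all 3 centrings.

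**Figure D5:**
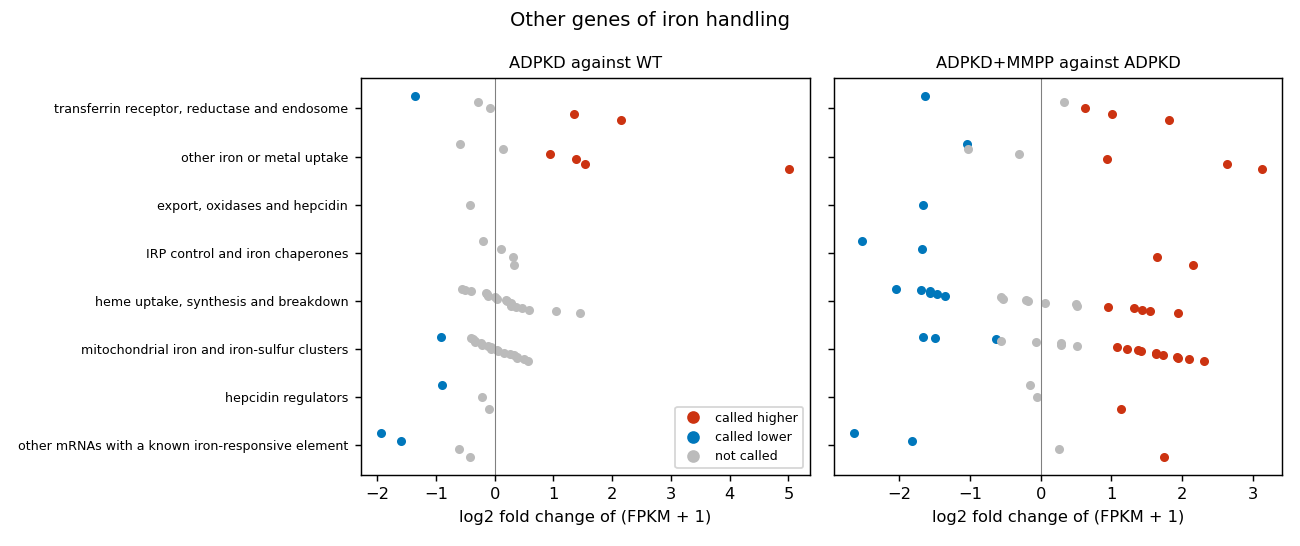
log2 fold changes of the 60 tested genes of a wider iron list, 1 point per gene, in rows by role, for ADPKD against WT (left) and ADPKD+MMPP against ADPKD (right). Red points were called higher, blue points lower and grey points were not called. On the left most points are grey and *Lcn2* stands apart at 5.02, and on the right 26 are red and 16 blue.

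Further genes of iron handling were followed in a list of 74 genes, of which 60 could be tested. In ADPKD against WT, 6 were called higher and 5 lower (18.3%, beside 26.7% of all tested genes), with a median log2 fold change of 0.02. The highest called were *Lcn2* (5.02), *Steap1* (2.14) and *Slc39a14* (1.54). The product of *Lcn2*, lipocalin-2, binds iron-loaded siderophores and marks tubular injury. *Slc39a14* encodes a transporter of zinc, manganese and iron not bound to transferrin. *Lcn2* was at 8.94 and 14.2 FPKM in WT and 257 and 610 FPKM in ADPKD. The lowest called were *Epas1* (-1.93), which encodes HIF-2alpha, *Cdc14a* (-1.59) and the reductase *Steap4* (-1.36). Of 18 genes of heme uptake, synthesis and breakdown, 0 were called by limma in ADPKD against WT, and 4 had an unadjusted P under 0.05. Of 19 genes of mitochondrial iron and iron-sulfur clusters, 1 was called, *Fdxr*, which was lower.

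In ADPKD+MMPP against ADPKD, 26 genes of the wider list were called higher and 16 lower (70%, beside 70.9% of all tested genes), with a median log2 fold change of 0.31. The highest were the endocytic receptors of the proximal tubule *Lrp2* (3.13) and *Cubn* (2.63), and *Lyrm4* (2.31), which takes part in making iron-sulfur clusters. *Lrp2* was at 9.80 and 4.86 FPKM in ADPKD and 68.7 and 68.7 FPKM in ADPKD+MMPP, beside the proximal tubule markers given above. The lowest were *Cdc42bpa* (-2.64), the iron chaperone *Pcbp2* (-2.53) and the heme exporter *Flvcr1* (-2.05). Of the 19 mitochondrial and iron-sulfur genes, 11 were called higher and 3 lower, with a median of 1.22. After centring by exon, principal transcript and coding share, *Lrp2* was at 2.37, 1.81 and 1.76, *Cubn* at 1.18, 1.17 and 1.32 and *Lyrm4* at 0.79, 0.79 and 0.81. *Cdc42bpa* was at -2.32, -1.12 and -1.59, *Pcbp2* at -1.68, -0.9998 and -1.47 and *Flvcr1* at -0.67, -0.78 and -2.16, and these 6 genes were called under each centring. The wider list then held 55% to 60% called genes, beside 54.8% to 59.1% of all centred genes.

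The partners of *Ireb2* in iron sensing were divided in the same comparison. *Aco1*, which encodes IRP1, was at 23.6 and 16.3 FPKM in ADPKD and 88.0 and 93.2 FPKM in ADPKD+MMPP, with a log2 fold change of 2.15 (adjusted p = 0.000228). *Fbxl5*, which encodes the ubiquitin ligase subunit that removes IRP2 when iron is ample, was at 5.83 and 8.46 FPKM in ADPKD and 1.30 and 1.71 FPKM in ADPKD+MMPP, with a log2 fold change of -1.69 (adjusted p = 0.000481). The iron chaperones *Pcbp1* (1.65) and *Pcbp2* (-2.53) went in opposite directions. *Heph*, which encodes the oxidase hephaestin, fell by 1.67 (adjusted p = 0.00026). Centred by exon, principal transcript and coding share, *Aco1* was at 1.0004, 0.83 and 0.78 and *Heph* at -0.90, -0.75 and -0.61, with calls throughout. *Fbxl5* was at -1.68, -0.27 and -0.63 and was not called under the second, and *Pcbp1* was at 0.14, 0.14 and 0.15 and was not called.

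Transcript structure ran through the wider list as well. Of its 23 tested genes with up to 5% of coding bases in exactly 1 transcript, 4 were called higher and 12 were called lower in ADPKD+MMPP against ADPKD, and of the 18 genes above 40%, 15 were called higher and 3 were not called. In ADPKD against WT the same classes held 2 higher and 1 lower of 23, and 3 higher and 2 lower of 18.

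In ADPKD+MMPP against WT, 23 genes of the wider list were called higher and 19 lower (70%, beside 73.9% of all tested genes). The highest were *Lcn2* (4.71), *Lrp2* (4.52) and *Steap1* (3.96), and the lowest were *Cdc14a* (-3.41), *Cdc42bpa* (-3.07) and *Pcbp2* (-2.42). These 6 genes were called in the same direction under each centring, with *Lcn2* at 3.84 to 5.98, *Lrp2* at 3.13 to 3.77, *Steap1* at 2.68 to 3.94, *Cdc14a* at -3.05 to -1.98, *Cdc42bpa* at -2.71 to -1.43 and *Pcbp2* at -1.51 to -0.79. *Lcn2* and *Steap1* were thus called higher than WT with and without MMPP. By uncentred FPKM, *Lcn2* was at 327 and 314 in ADPKD+MMPP, between the 257 and 610 of the ADPKD libraries. *Steap1* was at 22.6 and 21.4 FPKM, above the 4.54 and 6.71 FPKM of the ADPKD libraries. Centred by exon, principal transcript and coding share, *Steap1* against ADPKD was at 1.82, 0.89 and 0.49 and was not called under the last. *Lcn2* was at 0.01, 0.97 and -1.12, called lower under the last alone.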

How the data were processed

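The authors sequenced RNA of DBA-enriched kidney cells, aligned the reads to GRCm38 with HISAT2 2.1.0, counted them with featureCounts 1.6.0 and deposited values in FPKM per gene and library. The annotation release, strand setting and FPKM step are not given in the sources used here. GENCODE vM21 supplied positions, lengths and transcript structure.

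The test used limma 3.58.1 (R 4.3.3) in a single fit of log2(FPKM + 1) over the 6 libraries, for the 14862 genes that reached 1 FPKM in 2 or more libraries. A count model was not used, because FPKM are not counts. Calls needed a change of 1.5-fold or more and P under 0.05 before adjustment, and adjusted p-values are Benjamini-Hochberg over all tested genes. The steps were tested on simulated data.

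The 10 genes, the wider list and the marker lists were chosen with earlier results of these data known. Named genes are the 10, the 3 highest and 3 lowest called genes of the wider list per comparison whose libraries did not overlap, and further list members that describe a subgroup. The markers of intercalated, thick limb, endothelial, fibroblast and podocyte cells are summarised in the closing section. Alternatives covered pseudocount, filter, scaling, variance trend, groups, thresholds, replicate block, each replicate left out and centring by transcript structure. Centring by principal transcript and coding share was chosen after seeing the data.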

Additional observations from a re-analysis of the deposited data

How the results depend on the processing

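Under the alternatives, 164, 164 and 162 log2 fold changes of the 10 genes kept their direction and their side of the threshold in the 3 comparisons (ADPKD against WT, then MMPP-treated against ADPKD, then MMPP-treated against WT), and 0, 10 and 6 changed direction. In ADPKD against WT, the count of 6 called iron genes became 3 with a pseudocount of 5 and 1 with a fold change of at least 2, since the former shrinks genes of low FPKM and the latter raises the threshold. Centring by coding share gave 3 calls in place of 9 in ADPKD+MMPP against ADPKD and 4 in place of 8 in ADPKD+MMPP against WT, and centring by principal transcript share gave 5 in the latter. In ADPKD+MMPP against ADPKD, centring turned the log2 fold change of *Tfrc* to 0.33 by exon share and 0.0197 by principal transcript share, *Ftl1* to 0.66, 0.62 and 0.26 by exon, principal transcript and coding share, *Ireb2* to -0.0507, -0.0786 and -0.041 in the same order, and *Slc40a1* to -0.0611 by exon share and -0.0513 by coding share. In ADPKD+MMPP against WT it turned *Ftl1* to 0.88, 0.84 and 0.48, *Trf* to 0.32 by exon share and 0.37 by coding share, and *Slc11a2* to -0.20 by exon share. The cause was not tested.

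*Tfrc* in ADPKD against WT was called at -0.65 with a common FPKM sum, -0.66 with quantile normalization and -0.62 with the median of ratios, and *Ireb2* lost its call at 0.53, 0.58 and 0.54. Quantile normalization moved the median of all genes in ADPKD+MMPP against ADPKD from -0.36 to 0.10 and the share of higher calls from 39.3% to 54.0%; there *Tfrc* (-0.46) and *Steap3* (-0.49) were not called, nor was *Trf* against WT (-0.21).

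With the replicate number as a replicate block, 6, 9 and 8 iron genes were called in the 3 comparisons and no call of the 10 genes changed. The deviations of same-numbered libraries correlated at 0.129, -0.00796 and 0.0137 between the groups. The labels give only the replicate number, and with 2 libraries per group these values cannot show whether same-numbered libraries share a batch. The block called 4055, 10595 and 11038 of all genes, against 3970, 10540 and 10984 without it.

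The *Steap3* values of ADPKD+MMPP rest on 2 and 10 reads and are therefore imprecise. The cause of these low read numbers was not tested.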

Other observations

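Markers of other cell types were summed in FPKM as values for the 3 groups, without centring. Calls are given for ADPKD against WT, ADPKD+MMPP against ADPKD and ADPKD+MMPP against WT, in this order. Of all tested genes, 26.7%, 70.9% and 73.9% were called there. Intercalated cell markers were at 284 to 291 in WT, 30.1 to 79.4 in ADPKD and 256 to 265 in ADPKD+MMPP. Of the 7 tested, 7 were called lower, then 7 higher, then 1 higher. Thick limb and distal tubule markers were at 517 to 1301, 191 to 631 and 201 to 202 in the same order of groups. Of the 6 tested, 3 were called lower, then 2 higher and 1 lower, then 1 higher and 3 lower. Podocyte markers were at 900 to 1231, 90.8 to 205 and 87.2 to 89.7, and endothelial markers were at 685 to 825, 510.2 to 527 and 312 to 342. Of the 5 podocyte markers tested, 5, 3 and 5 were called lower and 0 higher. Of the 6 endothelial markers tested, 1, 0 and 1 were called higher and 5, 3 and 5 lower. Fibroblast markers were at 83.7 to 105, 121 to 139.9 and 97.4 to 105. Of the 6 tested, 4 were called higher and 1 lower, then 1 higher and 3 lower, then 3 higher and 2 lower.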
